A study of Homo sapiens with 6 samples.

Results

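The proteasome genes measured here are the protein-coding genes whose symbol starts with PSMA, PSMB, PSMC, PSMD, PSME, PSMF or PSMG followed by a digit. There were 50 such genes among 19888 protein-coding genes, and 48 of them reached a mean of 0.5 FPKM (fragments scaled for transcript length and library depth) over the libraries and were tested, among 12241 genes in all. The symbol rule also takes *PSMC3IP*, which encodes a partner of the meiotic recombinases, and *PSME3IP1*, which encodes a protein that binds an activator subunit; neither is a proteasome subunit. RNA-seq was performed on HaCaT cells, a spontaneously immortalized human keratinocyte line, to ask which genes are expressed differently when the fibroblast growth factor receptor gene *FGFR2* is lost. The 6 libraries came from 3 WT and 3 *FGFR2* KO cell lines, each of 1 line, grown in the same serum-containing medium and with no inflammatory stimulus named for these samples. The KO lines had been made with CRISPR/Cas9 and a guide RNA against an exon of *FGFR2* and grown up from single sorted cells, so that each stands for 1 clone. The labels do not say how each WT line was derived. A legend of the paper calls the 3 HaCaT lines behind its baseline RNA-seq values clonally expanded. Its text counts the original cell population among the WT lines. The spread between the WT lines may therefore be between clones, or between clones and that population. The p-values measure the spread between these lines.

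The 26S proteasome degrades proteins tagged with ubiquitin. Its 20S core is a barrel of outer alpha rings, which gate the entry, and inner beta rings, which hold the proteolytic sites, and the 19S cap binds, unfolds and feeds in the substrate. Interferon replaces the catalytic beta subunits by *PSMB8*, *PSMB9* and *PSMB10* to give the immunoproteasome, whose peptides are loaded on MHC class I, and it also induces the activator subunits *PSME1* and *PSME2*.

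*FGFR2* itself was listed at 21.6, 39.7 and 15.0 FPKM in WT 1, 2 and 3 and at 3.04, 2.26 and 4.31 FPKM in KO 1, 2 and 3, so that the labels and the RNA matched. All 10 keratinocyte markers reached a mean of 0.5 FPKM, and their sum was between 12649 and 29956 FPKM per library. Of 7 immune cell markers only *CD68* and *CD14* reached that mean, and *PTPRC*, the pan-leukocyte gene, stayed at or under 0.153 FPKM. Of the fibroblast, melanocyte and endothelial markers, 2 of 5, 1 of 4 and 2 of 3 reached it. The summed immune markers ranged from 12.5 to 22.4 FPKM in WT and from 5.30 to 11.7 FPKM in KO, and the summed fibroblast markers from 7.95 to 33.2 FPKM in WT and from 6.89 to 12.6 FPKM in KO. Both sums were highest in WT 2, as was the melanocyte sum, at 2.44 FPKM. The summed endothelial markers ranged from 18.1 to 27.2 FPKM in WT, highest in WT 3, and from 5.82 to 17.5 FPKM in KO. The part of these markers in the results was not tested. Mitochondrially encoded genes took 21.5% to 27.6% of the FPKM in WT and 11.9% to 23.7% in KO, and the lowest share was in KO 3. Depth, estimated from the steps between low values, was 67600000 to 87900000 fragments per library.

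In the promoters, the letters of interferon and oxidative stress elements were found in some of the members. The following stretches are shown because they mark which genes carry the interferon-stimulated response element (ISRE, searched as a pair of GAAA blocks with 2 free bases between them) upstream of the RefSeq start, in capitals, among the immunoproteasome and the other members. They are the RefSeq sequence of GRCh38.p14, written 5′ to 3′ on the strand of the gene.
PSMB10, chr16:67936852-67936881, minus strand: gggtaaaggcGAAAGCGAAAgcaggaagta
PSME2, chr14:24146619-24146648, minus strand: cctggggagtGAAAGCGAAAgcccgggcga
PSMG4, chr6:3258904-3258933, plus strand: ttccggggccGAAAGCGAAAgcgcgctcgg
PSMA4, chr15:78540155-78540184, plus strand: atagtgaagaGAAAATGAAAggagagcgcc
PSMB4, chr1:151399495-151399524, plus strand: tcgtctacagGAAAAAGAAAgaaatgacac

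The search covered both strands of the 250 bases before and 50 bases after each start, and 44 of the 50 members had such a window in RefSeq. A stretch before a RefSeq start can lie inside the gene span given by GENCODE. This was so, wholly or in part, for *PSMB10*, *PSME2* and *PSMG4*, and for *PSMB9* in the stretches further on. The ISRE letters were present in 6 of the 44 windows (13.6%), against 2.73% of the 9809 tested genes with a window and 3.65% of 27305 promoters in all. The remaining window of the 6, that of *PSME1*, had them after the start. In *PSMB10*, *PSME2* and *PSMG4* the variable bases were the same. The windows of *PSMB8* and *PSMB9* did not hold these letters, which says nothing about interferon factors elsewhere. The letters of a gamma-activated site (TTCNNNGAA) were present in 11.4% of the members' windows and in 6.20% of those of tested genes, and in none of the 3 immuno-subunit windows.

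The core of the antioxidant response element (TGACNNNGC), the element bound by NFE2L1 and NFE2L2, which control proteasome genes, was present in 13 of 44 windows (29.5%), against 15.1% of the windows of tested genes. Among the 26 constitutive core and cap genes with a window, 5 held it (19.2%). Of the 8 members past the unadjusted rule described further on that had a window, 4 held it, after the start in *PSMC4*. The stretches of the other 3 are shown first. They are followed by 3 members that hold the core and had log2 fold changes between -0.02 and 0.06, so that both kinds can be seen. The share with the core among all tested genes past the unadjusted rule was not determined. A link between the element and the change was not tested. The capitals mark the core or, in *PSMB9*, its reverse complement, and *PSMD9* had a second copy on the other strand.
PSMG1, chr21:39183616-39183644, minus strand: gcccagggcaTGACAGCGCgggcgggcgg
PSMB3, chr17:38752627-38752655, plus strand: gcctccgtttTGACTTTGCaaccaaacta
PSMD12, chr17:67366724-67366752, minus strand: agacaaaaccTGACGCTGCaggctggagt
PSMD9, chr12:121888678-121888706, plus strand: cggcttccggTGACCCAGCtccgccctaa
PSME1, chr14:24136098-24136126, plus strand: atggcagggcTGACCCCGCctcctccatc
PSMB9, chr6:32854034-32854062, plus strand: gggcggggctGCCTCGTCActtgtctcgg

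In none of these stretches did the capitals overlap one of the other motifs searched. The CCAAT box (CCAAT) was present in 47.7% of the members' windows and 37.2% of those of tested genes, and an ETS motif (CCGGAAG) in 31.8% and 20.2%. The palindromic nuclear respiratory factor 1 motif was present in 2.27% and 2.31%. A match describes letters in a window and not a bound site.

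No gene was called different between KO and WT by limma, where a call needed an adjusted p no higher than 0.05 together with a log2 fold change of 0.5 or more in either direction (0% of 12241 genes tested, Benjamini-Hochberg), and the smallest adjusted p of a proteasome member was 0.261. At an unadjusted p no higher than 0.05, 16.9% of all tested genes passed and 17 of 48 members did, all with the higher level in KO. With the fold threshold added, 9 members had the higher level in KO and 0 the lower, which is 18.8% of the members tested. Over all tested genes, 10.2% passed this rule with the higher level in KO and 2.33% with the lower. The log2 fold change was above 0 for 45 of 48 members (60.6% of all tested genes), with a median of 0.30 for the members and 0.09 for all tested genes. In 19 of 48 members (39.6%) every KO library was above every WT library, against 18.3% of all tested genes, and in 0 members was every KO library below every WT library, against 5.77%. A single gene can reach no exact permutation p under 0.1 with 3 libraries against 3. *FGFR2*, the gene knocked out, was among the tested genes that were not called. The lack of calls therefore does not show that no gene changed.

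**Figure D1:**
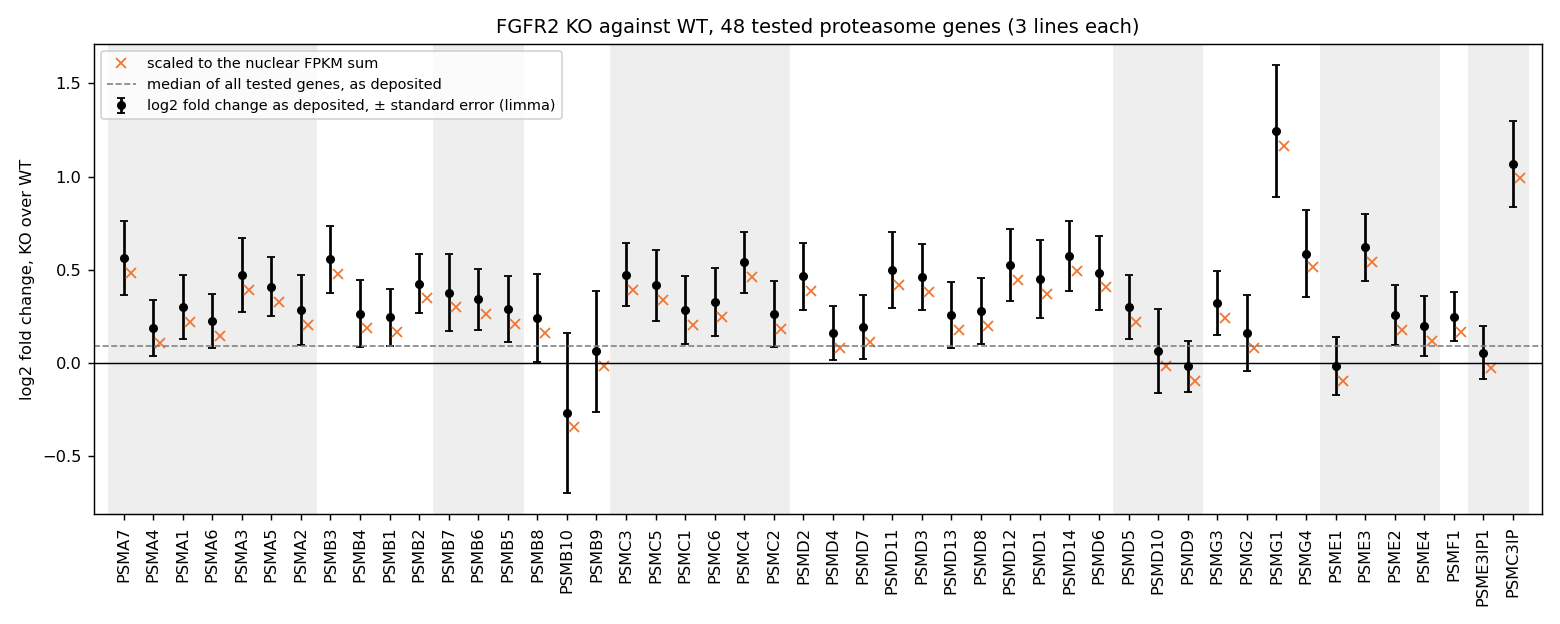
Log2 fold change of KO over WT (y axis) for the 48 tested members (x axis, shaded by class); points with bars are the limma estimate ± standard error on the deposited FPKM, crosses the estimate after scaling to the nuclear FPKM sum, and the dashed line the median of all tested genes. *PSMG1* and *PSMC3IP* lie above 1 and *PSMB10* lies lowest, at -0.27.

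These counts depended on how libraries were scaled. When each library was scaled to the summed FPKM of nuclear genes, so that the unequal mitochondrial share no longer enters, 4 members passed the unadjusted rule with the higher level in KO (*PSMC3IP*, *PSME3*, *PSMG1* and *PSMG4*), against 7.6% of all tested genes. The log2 fold change was then above 0 for 42 members (51.7% of all tested genes), with a median of 0.22 for the members and 0.01 for all tested genes. Without KO 3, 2 members passed (*PSMC3IP* and *PSMG1*, against 4.36% of all genes then tested), and without WT 2, 5 members passed (against 8.02%). As a share of all nuclear FPKM, the members took 0.855%, 0.730% and 0.845% in WT 1, 2 and 3 and 0.879%, 0.962% and 1.08% in KO 1, 2 and 3. The groups did not overlap, with WT 2 lowest and KO 3 highest (0.810% ± 0.070 in WT and 0.972% ± 0.099 in KO, SD, n = 3).

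The constitutive 20S core and 19S cap are made of 31 of these genes, and every one of them had a log2 fold change above 0. The change ranged from 0.16 to 0.57 with a median of 0.38, where 60.6% of all tested genes had a change above 0. It was also above 0 for all 31 genes under each of the 17 alternatives run. Not all of these could alter the sign. The filters, no trend and the replicate block leave the fold change as it is, and other pseudocounts hardly moved it. The median was 0.30 after scaling to the nuclear sum and 0.26 after median-of-ratios scaling. Under median-of-ratios scaling all tested genes shifted in their median by -0.11, and relative to it the median of the 31 genes was 0.28, against 0.29 as deposited. The same difference was 0.12 with library quality weights, 0.19 without WT 2 and 0.20 without KO 3. Of the 31 genes, 13 passed an unadjusted p of 0.05, against 16.9% of all tested genes. With the fold threshold added, 5 (16.1%) passed with the higher level in KO, against 10.2% of all tested genes. In 13 (41.9%) every KO library was above every WT library, against 18.3%. After nuclear scaling 9 of the 31 (29.0%) had every KO library above every WT library, against 15.5% of all tested genes. The rule with the fold threshold was then passed by 0 of the 31, against 7.6% of all tested genes with the higher level in KO. The highest library was KO 3 for 30 of the 31 genes, as it was for 38.7% of all tested genes, and the lowest was WT 2 for 22 of 31, against 26.1%. KO 3 was also the library with the lowest mitochondrial share, 11.9%. The nuclear scaling takes that share out, and any further part of it was not tested. Among the 4103 tested genes whose mean was at or above that of the lowest constitutive subunit, the median log2 fold change was 0.11.

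**Figure D2:**
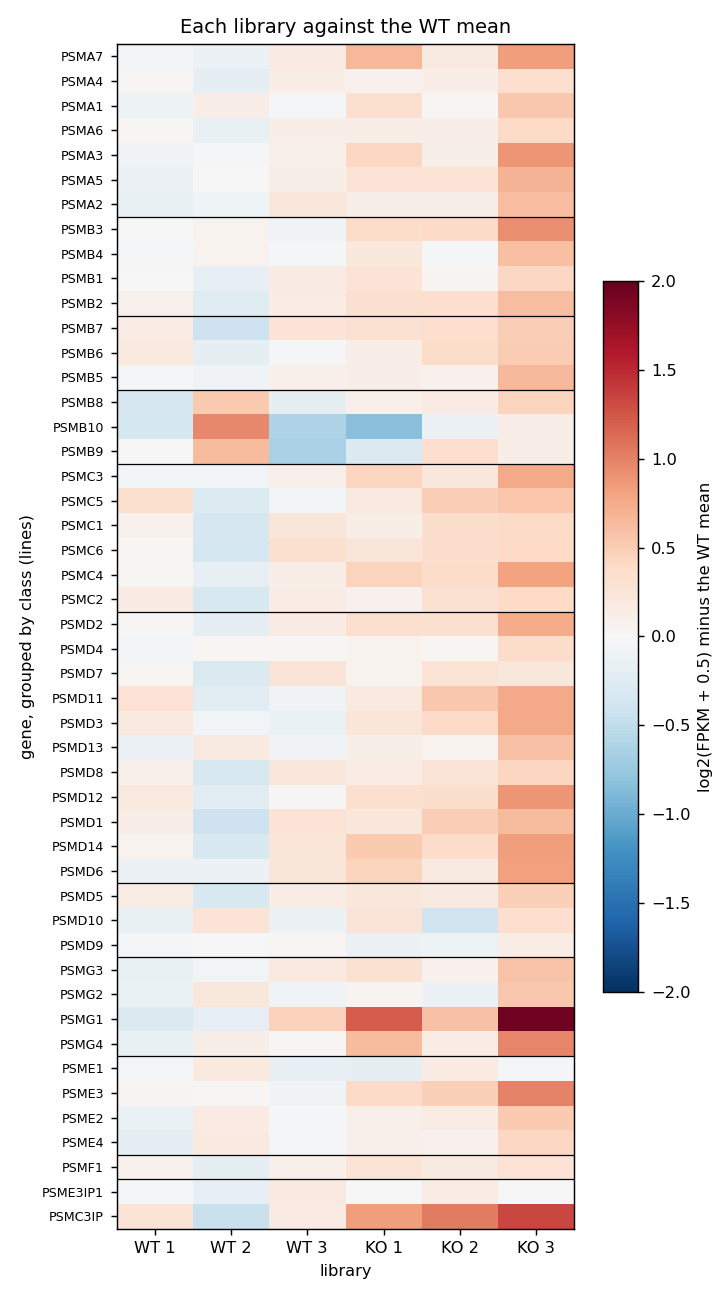
Log2(FPKM + 0.5) minus the WT mean of the gene, as colour, for each tested member (rows, grouped by class) in each library (columns). Most constitutive subunits are darkest red in KO 3 and mostly blue in WT 2, while *PSMB8*, *PSMB9* and *PSMB10* are darkest red in WT 2.

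The levels of the constitutive subunits were compared between libraries. Within a library the highest of the 31 constitutive subunits was 13.7 to 17.1 times the lowest in FPKM, which is a length-normalized unit. The rank correlation of the 31 levels between any 2 libraries lay between 0.935 and 0.991 over the 15 pairs, which is a description of levels over the same genes. The ratio of the summed FPKM of the core to that of the cap was 0.980 ± 0.033 in WT and 0.969 ± 0.058 in KO (SD, n = 3), with overlapping groups. The core and the cap sums had each the higher mean in KO, at 2496 ± 371 against 1938 ± 157 FPKM and at 2576 ± 356 against 1982 ± 202 FPKM. As a share of nuclear FPKM, the core groups did not overlap, from 0.295% to 0.350% in WT and from 0.373% to 0.448% in KO. The cap groups did, with KO 1 at 0.365% just under WT 1 at 0.367%.

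The 7 alpha subunits, which form the gated outer rings, had a median log2 fold change of 0.30, and 3 of the 7 had every KO library above every WT library, against 18.3% of all tested genes. *PSMA7*, the highest of them, had 205, 195 and 239 FPKM in WT 1, 2 and 3 and 337, 241 and 379 FPKM in KO 1, 2 and 3. KO 2 lay just above WT 3, and the groups did not overlap (log2 fold change 0.56, SE 0.20, limma unadjusted p = 0.0237, adjusted p = 0.261). *PSMA2*, the lowest, had 43.4, 45.1 and 56.3 FPKM in WT and 51.9, 52.1 and 73.9 FPKM in KO, with WT 3 above the lower KO libraries (log2 fold change 0.28, SE 0.19, and 0.12 without KO 3).

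Of the 4 structural beta subunits, which complete the inner rings without a proteolytic site, 2 had every KO library above every WT library (18.3% of all tested genes), and the median log2 fold change was 0.34. *PSMB3*, the highest, had 129, 135 and 123 FPKM in WT and 166, 168 and 246 FPKM in KO. Every KO library lay above every WT library (log2 fold change 0.56, SE 0.18, limma unadjusted p = 0.0165, adjusted p = 0.261). The change was 0.37 without KO 3. *PSMB2*, the lowest, had 49.1, 39.1 and 51.3 FPKM in WT and 57.5, 58.6 and 71.3 FPKM in KO, again without overlap (log2 fold change 0.42, SE 0.16).

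The constitutive catalytic subunits are *PSMB5*, with chymotrypsin-like activity, *PSMB6*, with caspase-like activity, and *PSMB7*, with trypsin-like activity. *PSMB5* had 97.3, 95.7 and 107 FPKM in WT and 109, 106 and 157 FPKM in KO, where KO 3 stood apart and KO 2 lay under WT 3 (log2 fold change 0.29, SE 0.18, and 0.11 without KO 3). *PSMB6* had 202, 156 and 175 FPKM in WT and 195, 229 and 253 FPKM in KO, with KO 1 under WT 1 (0.34, SE 0.16). *PSMB7*, the highest of the 3, had 372, 252 and 407 FPKM in WT and 417, 425 and 472 FPKM in KO, without overlap and with WT 2 low (0.38, SE 0.21, and 0.17 without WT 2). None of them passed an unadjusted p of 0.05 (limma adjusted p 0.330 to 0.430).

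The immuno-subunits had log2 fold changes from -0.27 to 0.24 with a median of 0.06, and none passed an unadjusted p of 0.05. On GRCh38, *PSMB8* (ENSG00000204264) lies at chr6:32840717-32844679 on the minus strand, *PSMB9* (ENSG00000240065) at chr6:32844136-32859851 on the plus strand, and *PSMB10* (ENSG00000205220) at chr16:67934506-67936864 on the minus strand. *PSMB8*, which takes the place of *PSMB5*, had 21.7, 39.5 and 24.1 FPKM in WT and 29.5, 30.7 and 37.7 FPKM in KO (log2 fold change 0.24, SE 0.24, limma adjusted p = 0.620). *PSMB9*, which takes the place of *PSMB6*, had 21.3, 33.1 and 13.3 FPKM in WT and 17.2, 26.9 and 23.2 FPKM in KO (0.06, SE 0.32, adjusted p = 0.936). *PSMB10*, which takes the place of *PSMB7*, had 18.3, 46.4 and 15.3 FPKM in WT and 13.02, 21.8 and 25.9 FPKM in KO (-0.27, SE 0.43, adjusted p = 0.764). For all 3 the highest library was WT 2 and the groups overlapped. The log2 fold change of *PSMB8* was 0.50 without WT 2, 0.073 without WT 1, 0.14 without WT 3 and 0.13 without KO 3. Without WT 2 that of *PSMB10* was 0.21 and that of *PSMB9* was 0.38. For *PSMB9* it was -0.02 after nuclear scaling, so no direction is given for either gene. The median coefficient of variation between replicates of the 3 genes was 44.05% in WT and 22.0% in KO, while that of the 31 constitutive subunits was 12.2% and 17.0%.

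The 3 immuno-subunits made up 8.37%, 19.1% and 7.09% of the summed FPKM of the 6 catalytic subunits in WT 1, 2 and 3 and 7.64%, 9.45% and 8.97% in KO 1, 2 and 3. WT 2 was the only library over 10% and lay above the KO libraries, while the other WT libraries lay on either side of KO 1. The mean share was 11.5% ± 6.59 in WT and 8.69% ± 0.938 in KO (SD, n = 3), a difference of -2.83 percentage points that became 0.96 without WT 2. By pair, *PSMB8* took 18.3% to 29.2% of *PSMB8* and *PSMB5* over the 6 libraries, *PSMB9* took 7.07% to 17.5% of *PSMB9* and *PSMB6*, and *PSMB10* took 3.03% to 15.6% of *PSMB10* and *PSMB7*. In each pair the highest share was in WT 2. That library also had the highest sum of immune cell markers, 22.4 FPKM, most of it *CD68* at 20.4 FPKM, while *PTPRC* was at 0.0604 FPKM there, its lowest value of the 6 libraries. The part of such cells in the shares was not tested.

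**Figure D3:**
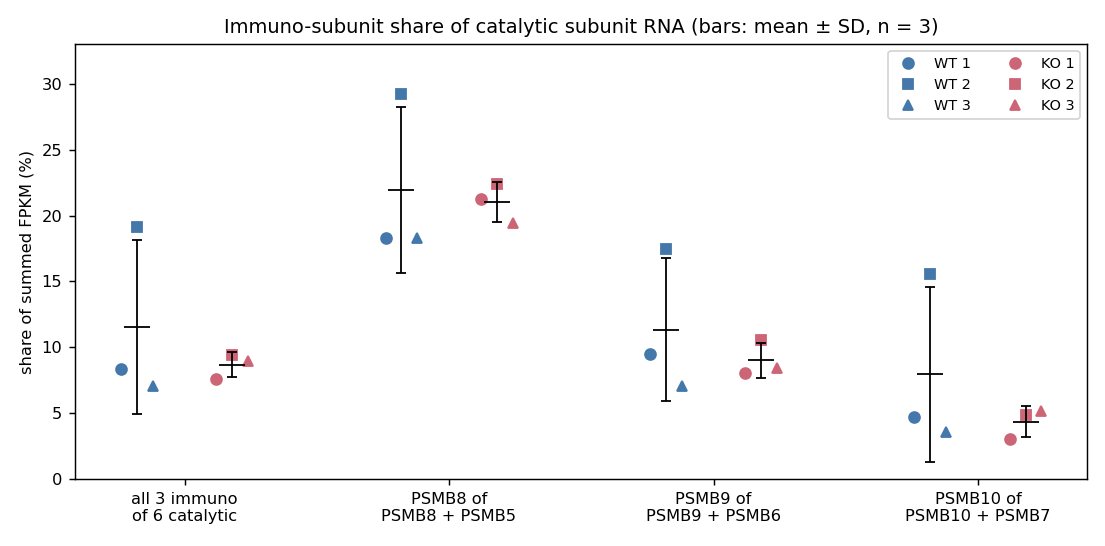
Share of the summed FPKM (y axis, percent) taken by the immuno-subunits among all 6 catalytic subunits and within each pair (x axis), with WT in blue, KO in red, a symbol per replicate and bars for mean ± SD (n = 3). WT 2 is the highest point in each column, at 19.1% for all 3 immuno-subunits.

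The genes beside the immunoproteasome on chromosome 6 and in class I presentation showed the same library at the top for some members. *TAP1*, a peptide transporter subunit, had 28.3, 37.9 and 27.2 FPKM in WT and 30.5, 33.4 and 37.4 FPKM in KO, and *IRF1*, a transcription factor that induces the immuno-subunits, had 46.0, 93.5 and 31.0 FPKM in WT and 30.8, 52.0 and 52.1 FPKM in KO. WT 2 was the highest library for both, with KO 3 next to it for *TAP1*. *TAP2*, the other subunit of the transporter, had 24.4, 29.1 and 27.5 FPKM in WT and 34.3, 31.4 and 47.2 FPKM in KO. Its groups did not overlap (log2 fold change 0.46, SE 0.18, limma adjusted p = 0.279). Of the 14 class I presentation and interferon genes listed, 1 had the higher level in KO past the unadjusted rule (*GBP1*, log2 fold change 0.65). The lower level in KO was found for 1 (*GBP2*, -0.9998). Over all tested genes the shares were 10.2% and 2.33%. The median was 0.15 over the list and 0.09 over all tested genes. In 4 of the 14 every KO library was above every WT library, against 18.3% of all tested genes. *PSMB8* overlaps *PSMB9* by 544 bases on the opposite strand, and *PSMB9* overlaps *TAP1* by 8608 bases. Overlaps here and further on are of whole gene spans, introns included. The libraries were stranded, but whether strand was used for the FPKM is not stated. How many reads these genes could share was not tested.

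In the 19S cap, the 6 ATPases, which unfold the substrate, had a median log2 fold change of 0.37, and the 11 non-ATPase subunits had 0.46. *PSMC3*, the highest ATPase, had 175, 174 and 194 FPKM in WT and 244, 211 and 307 FPKM in KO, without overlap (log2 fold change 0.47, SE 0.17). *PSMC2*, the lowest, had 53.1, 37.7 and 52.7 FPKM in WT and 50.2, 58.2 and 62.6 FPKM in KO, with KO 1 inside the WT range (0.26, SE 0.18, and 0.10 without WT 2). *PSMC4* was the ATPase past the unadjusted rule, with 43.9, 38.4 and 47.5 FPKM in WT and 58.6, 55.8 and 75.8 FPKM in KO. Its groups did not overlap (0.54, SE 0.16, limma unadjusted p = 0.0118, adjusted p = 0.261).

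*PSMD2*, a scaffold subunit that binds ubiquitin receptors, had the highest mean of all 50 genes, with 358, 309 and 395 FPKM in WT and 443, 442 and 587 FPKM in KO. The groups did not overlap (log2 fold change 0.46, SE 0.18). *PSMD6*, the lowest cap subunit, had 21.8, 21.8 and 28.2 FPKM in WT and 32.4, 27.1 and 42.5 FPKM in KO, with KO 2 under WT 3 (0.48, SE 0.20, and 0.31 without KO 3). *PSMD14*, the deubiquitinase that removes ubiquitin chains before entry, had 42.8, 33.03 and 48.2 FPKM in WT and 58.7, 52.8 and 73.2 FPKM in KO. Every KO library was above every WT library (0.57, SE 0.19, limma unadjusted p = 0.0179, adjusted p = 0.261). *PSMD12*, a lid subunit, had 67.7, 51.0 and 60.6 FPKM in WT and 74.4, 76.1 and 110 FPKM in KO, also without overlap (0.52, SE 0.19, limma unadjusted p = 0.0291, adjusted p = 0.268), and its change was 0.34 without KO 3. Among the remaining 10 cap subunits the log2 fold change ran from 0.16 for *PSMD4*, a ubiquitin receptor, to just under the fold threshold for the lid subunit *PSMD11*. *PSMD11* had 151, 105 and 118 FPKM in WT and 140, 179 and 209 FPKM in KO, with KO 1 under WT 1.

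The 4 chaperones of the 20S core had log2 fold changes from 0.16 to 1.24. *PSMG1* (ENSG00000183527, chr21:39174769-39183488, minus strand), which pairs with *PSMG2* to assemble the alpha ring, had 9.22, 10.1 and 15.9 FPKM in WT and 27.03, 17.3 and 45.2 FPKM in KO. The groups did not overlap, the ratio of the means was 2.54, and KO 3 was the highest library (log2 fold change 1.24, SE 0.35, limma unadjusted p = 0.00877, adjusted p = 0.261). *PSMG2* itself had 24.997, 32.4 and 25.9 FPKM in WT and 28.5, 25.3 and 40.5 FPKM in KO, with overlap (0.16, SE 0.20). *PSMG4*, which pairs with *PSMG3*, had 4.14, 5.09 and 4.73 FPKM in WT and 7.48, 5.18 and 9.63 FPKM in KO, with KO 2 just above WT 2 (0.59, SE 0.23, limma unadjusted p = 0.0385, adjusted p = 0.281), and its change was 0.39 without KO 3. *PSMG3* had 30.6, 32.5 and 38.9 FPKM in WT and 41.8, 35.9 and 50.7 FPKM in KO, with KO 2 inside the WT range (0.32, SE 0.17, and 0.19 without KO 3). *PSMG2* and *PSMG4* overlap genes on the opposite strand by 40945 bases (*CEP76*) and 34412 bases (*SLC22A23*).

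The 3 chaperones of the 19S base had a median log2 fold change of 0.06. *PSMD5* had 86.9, 63.4 and 87.1 FPKM in WT and 91.8, 88.8 and 110 FPKM in KO, where WT 2 was low and the groups did not overlap (0.30, SE 0.17, and 0.15 without WT 2). *PSMD9* had 21.5, 22.3 and 22.9 FPKM in WT and 20.6, 20.6 and 24.8 FPKM in KO, a span of 20.6 to 24.8 FPKM over all 6 libraries (-0.02, SE 0.14). The inhibitor gene *PSMF1* had 75.6, 63.1 and 76.7 FPKM in WT and 86.8, 81.0 and 87.4 FPKM in KO, without overlap (0.25, SE 0.13, limma adjusted p = 0.374).

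Among the activators, which open the 20S core without ATP or ubiquitin, *PSME3* had the largest fold change. *PSME3* (ENSG00000131467, chr17:42824385-42843760, plus strand), the nuclear activator, had 89.3, 87.3 and 82.5 FPKM in WT and 113, 120 and 173 FPKM in KO. The groups did not overlap (log2 fold change 0.62, SE 0.18, limma unadjusted p = 0.010, adjusted p = 0.261). The interferon-inducible *PSME1* had 113, 131 and 102 FPKM in WT and 99.6, 128 and 113 FPKM in KO (-0.02, SE 0.16, adjusted p = 0.963), and its partner *PSME2* had 71.8, 88.2 and 78.2 FPKM in WT and 84.5, 88.0 and 114 FPKM in KO (0.26, SE 0.16, adjusted p = 0.437, and 0.12 without KO 3). Both overlapped between groups, and the ratio of *PSME1* to *PSME2* was 1.45 ± 0.137 in WT and 1.21 ± 0.235 in KO (SD, n = 3). *PSME4*, the lowest activator, had 30.3, 39.6 and 33.8 FPKM in WT and 36.8, 36.5 and 45.8 FPKM in KO (0.20, SE 0.16, and 0.092 without KO 3, 0.11 without WT 1 and 0.30 without WT 2). *PSME3* overlaps *BECN1* on the opposite strand by 8966 bases.

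**Figure D4:**
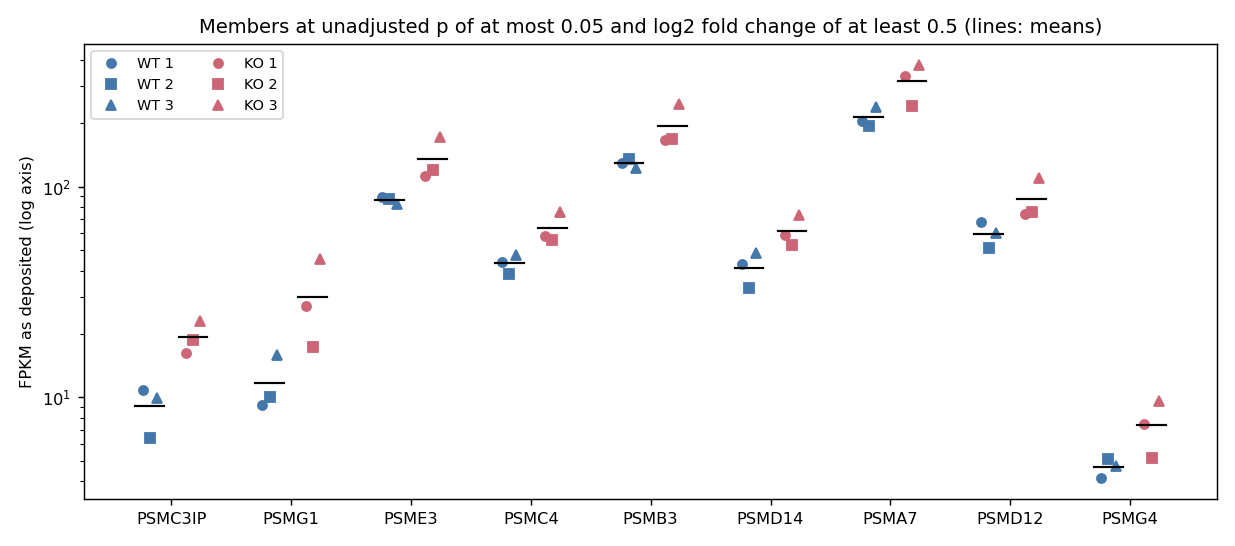
FPKM as deposited (log y axis) of the 9 members past the unadjusted rule, p no higher than 0.05 and log2 fold change no lower than 0.5 (x axis), with WT in blue, KO in red, a symbol per replicate and a line at each group mean. No WT library reaches a KO library in any of the 9, although the gap is small for *PSMA7* and *PSMG4*. The 9 were picked by their difference in these same libraries, so the lack of overlap is no separate result.

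The tissue-restricted core genes were near or at 0. *PSMA8*, the alpha subunit of testis, was listed at 0 FPKM in all 6 libraries, and *PSMB11*, the thymic catalytic subunit, was listed at 0.00797 FPKM in WT 2 and at 0 in the other 5. Of the genes that are no subunits, *PSMC3IP* had 10.8, 6.41 and 9.98 FPKM in WT and 16.2, 18.8 and 23.2 FPKM in KO, without overlap (log2 fold change 1.07, SE 0.23, limma unadjusted p = 0.00197, adjusted p = 0.261), and it overlaps *MLX* on the opposite strand by 930 bases. *PSME3IP1* had 135, 122 and 157 FPKM in WT and 138, 152 and 138 FPKM in KO (0.05, SE 0.14).

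Among 32 partners of the proteasome outside these symbols, such as ubiquitin receptors, deubiquitinases and shuttle factors, 3 had the higher level in KO past the unadjusted rule (*UCHL5*, *ADRM1* and *ECPAS*, log2 fold changes 0.53, 0.55 and 0.57) and 0 the lower, where 10.2% and 2.33% of all tested genes did. The change was above 0 for 28 of the 32 (60.6% of all tested genes), with a median of 0.24, and 9 had every KO library above every WT library (18.3% of all tested genes). *ADRM1*, the ubiquitin receptor that recruits the deubiquitinase *UCHL5* to the cap, had 130, 92.5 and 136 FPKM in WT and 157, 160 and 207 FPKM in KO, without overlap. *ECPAS* did not overlap between groups either. *UCHL5* did, with KO 2 at 32.7 FPKM under WT 3 at 35.4 FPKM. *NFE2L1*, which encodes the transcription factor that raises proteasome subunit expression when proteasome activity falls, had 718, 618 and 628 FPKM in WT and 599, 658 and 436 FPKM in KO (-0.23, SE 0.20, limma adjusted p = 0.555). Its groups overlapped. KO 3, the library with the highest level of 30 of the 31 constitutive subunits, was the lowest for *NFE2L1*. Whether *NFE2L1* had a part in the levels of the subunits was not tested. In these bulk samples, more cells expressing a gene and more RNA per cell cannot be told apart.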

How the data were processed

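RNA was sequenced from 3 WT and 3 *FGFR2* KO HaCaT lines (poly(A)-selected, stranded, paired-end libraries). Per the labels and methods, the authors trimmed reads with fastp 0.20.0 and pseudoaligned them with kallisto 0.46.1 to GRCh38.p13 with GENCODE 37. The deposited values are FPKM per gene; how they were calculated and whether strand was used is not given in the sources used here. Of 21493 genes, 18 Y copies were left out, and GENCODE 44 gave 21400 a symbol and position.

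limma 3.58.1 (R 4.3.3), tested on simulated data, was fitted on log2(FPKM + 0.5) with genotype as the only term. A mean-variance trend was used, for genes that averaged 0.5 FPKM or more. The simulation had larger changes than the members and a capped spread between libraries, so it does not show the power reached here. Fold changes on this scale understate those of low genes. Between 69.1% and 74.6% of low values were whole fragments within 0.02 (4% by chance), so reads were not recovered and count tests were not run.

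Members and lists were chosen with earlier results of these data known. Values per library are given for the catalytic and immuno-subunits, *PSME1* and *PSME2*, the highest and lowest member of each class, members past the unadjusted rule and members under the mean of 0.5 FPKM. *PSMD4*, *PSMD11*, *PSMG2* and the named partners and GBP genes were chosen after their values were seen. The values of 1 gene of the class I list are not reported here. Alternatives were other pseudocounts, filters, scalings, no trend, library weights, a replicate block and leaving out each library.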

Additional observations from a re-analysis of the deposited data

How the results depend on the processing

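No gene was called in any alternative except with library quality weights, where 1396 genes were called and WT 1 carried 89.7% of the WT weight. Among them were 5 of 48 members, *PSMA7*, *PSMC3IP*, *PSMD6*, *PSMG1* and *PSMG4* (10.4%, against 11.4% of all tested genes). The count of members higher in KO past the unadjusted rule, 9 as reported, was 14 at a common sum (TPM), 3 with median-of-ratios scaling, 4 with nuclear scaling, 3 with quantile normalization and 5 with library weights. In the same order these are 29.2%, 6.25%, 8.33%, 6.25% and 10.4% of the members, against 11.9%, 6.41%, 7.6%, 6.56% and 13.6% of all tested genes. The count lay between 2 (without KO 3) and 13 (without KO 2) when a library was left out, and was 5 without WT 2. The median log2 fold change of the members lay between 0.22 and 0.39 over these omissions, and the difference in immuno-subunit share between -5.04 and 0.96 percentage points, with 0.96 without WT 2. With the replicate number as a block, 0 genes were called and 9 members passed the unadjusted rule. Same-numbered libraries deviated with correlations of -0.21, 0.22 and 0.05, so the numbers were not taken as pairs, and the block changed no call.

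Of 476 values over 28 named genes, 452 kept direction and side of the threshold, 5 passed it (library weights) and 19 turned direction. The filters, no trend and the replicate block leave the log2 fold change as reported, so no direction could turn there. With a library left out, *PSMB10* ranged from -0.57 to 0.21 (above 0 without WT 2 or KO 1, at 0.012), *PSMB9* from -0.26 to 0.38 (below 0 without WT 3, or KO 2, at -0.080), *PSMD9* from -0.11 to 0.024 (above 0 without KO 1, KO 2, at 0.022, or WT 3, at 0.00061), *PSME1* from -0.11 to 0.077 (above 0 without WT 2 or KO 1, at 0.071) and *PSME3IP1* from -0.032 (without WT 2) to 0.15. *PSMB9* was -0.050 with median-of-ratios scaling, -0.017 with nuclear scaling, -0.051 with quantile normalization and -0.057 with weights, and *PSME3IP1* was -0.061, -0.027 and -0.076 with the first 3 of these. At a common sum *PSMD9* was 0.017 and *PSME1* 0.019. The cause was not tested. The replicate spread of 3 lines a group limits what can be called. Where a fit without 1 library left 2 in a group, the spread was pooled over both groups.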
